A study of Homo sapiens with 6 samples.

Results

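CALR, MANF, HYOU1 and PPIB are 4 genes whose proteins help newly made proteins to fold in the endoplasmic reticulum (ER), and their transcripts were followed here in U-87 MG cells, an established human glioblastoma line. They were found by gene symbol in the platform annotation and are 4 of 14884 named genes, carried by 5 of 53617 probe sets, with HYOU1 on 2 and the others on 1 each. The 4 were chosen by their difference between exposed and unexposed cells, which was already known, so that difference is given below as a description, with SE and intervals as errors, and supports nothing. The samples were 3 arrays of cells exposed without a break for 54 h to electromagnetic fields aimed at HSP70, the secreted glycoprotein CHI3L1, a mutated alpha-kinase 2 gene and the microRNA miR-381, and 3 arrays of unexposed cells, each labelled as an independent biological replicate. All dishes were kept at 37 °C, and exposure began 24 h after seeding. Exposed dishes stood in a culture box inside a Faraday chamber and unexposed dishes in a box outside it, so field and box cannot be told apart. Titles and source names set the groups; a further label field calls the exposed samples both exposed and control.

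Proteins bound for the cell surface or for secretion enter the ER unfolded, where chaperones, sugar-binding lectins, disulfide isomerases and proline isomerases bring them to their final shape. When unfolded protein builds up, the sensors IRE1 (gene ERN1), PERK (gene EIF2AK3) and ATF6 start the unfolded protein response (UPR), and the factors ATF6 and XBP1 switch on chaperone genes through short promoter motifs called ER stress response elements. Calreticulin (CALR) is a lectin chaperone that holds glycoproteins in the calnexin cycle and binds calcium. HYOU1 is a large relative of HSP70 that exchanges the nucleotide of BiP, the main HSP70 of the ER, and MANF is a small ER protein that binds BiP and can be secreted. PPIB, cyclophilin B, is a proline isomerase of the ER that also works in a complex with P3H1 and CRTAP, which modifies prolines of collagen.

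The 250 bases before each annotated transcript start are shown because the ER stress response elements that bear on chaperone genes are read there. The sequences are from RefSeq (build GRCh38.p14) and run 5′ to 3′ along the gene. All 4 genes had exactly 1 promoter entry. They lie at chr19:12938359-12938608 (plus strand) for CALR, chr3:51385041-51385290 (plus strand) for MANF, chr11:119057206-119057455 (minus strand) for HYOU1 and chr15:64163023-64163272 (minus strand) for PPIB. Capitals mark the 2 parts of the element, CCAAT and CCACG, on either strand, so that a capital ATTGG or CGTGG is the same part read on the opposite strand.
CALR: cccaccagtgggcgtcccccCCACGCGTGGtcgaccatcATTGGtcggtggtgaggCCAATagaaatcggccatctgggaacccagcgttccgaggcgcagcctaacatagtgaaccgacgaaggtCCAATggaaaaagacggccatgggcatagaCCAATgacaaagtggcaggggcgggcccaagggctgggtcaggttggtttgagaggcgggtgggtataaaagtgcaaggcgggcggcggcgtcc
MANF: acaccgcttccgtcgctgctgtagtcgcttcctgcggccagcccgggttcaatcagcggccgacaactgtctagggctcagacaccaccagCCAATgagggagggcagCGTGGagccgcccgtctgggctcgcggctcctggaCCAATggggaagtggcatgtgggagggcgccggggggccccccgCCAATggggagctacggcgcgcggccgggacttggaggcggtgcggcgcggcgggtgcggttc
HYOU1: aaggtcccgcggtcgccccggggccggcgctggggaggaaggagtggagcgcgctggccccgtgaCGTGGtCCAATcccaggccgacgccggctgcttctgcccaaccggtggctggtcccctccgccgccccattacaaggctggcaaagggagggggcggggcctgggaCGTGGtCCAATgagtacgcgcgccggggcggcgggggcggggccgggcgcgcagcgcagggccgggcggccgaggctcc
PPIB: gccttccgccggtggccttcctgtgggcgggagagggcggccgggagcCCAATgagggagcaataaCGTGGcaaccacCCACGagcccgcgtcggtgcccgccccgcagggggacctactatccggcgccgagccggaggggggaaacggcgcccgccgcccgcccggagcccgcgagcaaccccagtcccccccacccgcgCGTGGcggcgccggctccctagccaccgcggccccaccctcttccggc

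The complete ER stress response element (ERSE), with the letters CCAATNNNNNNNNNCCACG, was found once in CALR, on the opposite strand, 225 to 207 bases before the start. Of all 35116 promoters in the table, 26 (0.0740%) held it in the same 250 bases. The shorter element II (ERSE-II), ATTGG and CCACG with 1 base between them, was found at 2 places in HYOU1, 185 to 175 and 79 to 69 bases before the start, again on the opposite strand, and 18 of all promoters (0.0513%) held it. The HYOU1 match farther from the start overlaps a match to the core of the UPR element (UPRE), TGACGTGG, 188 to 181 bases before the start, which 0.612% of promoters held. MANF and PPIB held no complete element. The nearest stretch in MANF missed ERSE-II by 1 of its 10 fixed letters, and 1.14% of promoters missed it by as few or none. The nearest stretch in PPIB missed ERSE by 2 of 10, and 15.6% of promoters came as close or closer. Both parts occurred in all 4 promoters, with 4 CCAAT matches in CALR, 3 in MANF, 2 in HYOU1 and 1 in PPIB. Those parts are common, since 32.0% of promoters held CCAAT and 33.5% held CCACG. They were more common still in 260 other genes of the ER lists described below. Of those, 51.5% held CCAAT, 63.8% held CCACG and 5.38% held the UPRE core. These are shares of genes, each counted if any of its promoter entries matched, while the others are shares of promoter entries. The 2 sets were not matched for base composition or kind of gene. The ATF4 element TGATGNAA, held by 3.14% of promoters, and the heat shock element (GAA, TTC and GAA with 2 bases between each), held by 0.441%, were found in 0 of the 4 promoters. All motifs were searched on both strands, and a match is a match of letters only.

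**Figure D1:**
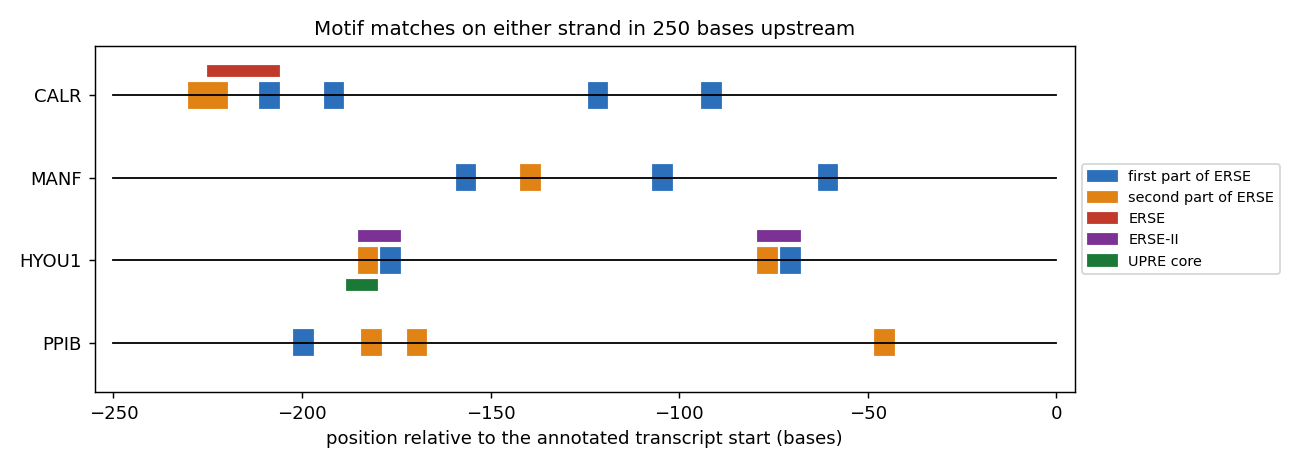
Matches to motifs on either strand (coloured blocks) in the 250 bases upstream of CALR, MANF, HYOU1 and PPIB, plotted against the distance in bases from the annotated transcript start. CALR has a complete ERSE (red) at 225 to 207 bases, HYOU1 has ERSE-II (purple) at 185 to 175 and at 79 to 69 bases, and MANF and PPIB have single parts alone.

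Values are log2 expression per probe set after RMA, a procedure that removes background, gives every array the same distribution and summarises the probes of a set. Array medians lay between 3.96 and 3.99, and pairs of arrays correlated at 0.987 to 0.988 (exposed with exposed), 0.985 to 0.986 (unexposed with unexposed) and 0.982 to 0.987 (exposed with unexposed). Differences are exposed minus unexposed on the log2 scale, from 1 linear model fitted to all probe sets with limma. The threshold is a Benjamini-Hochberg adjusted p of 0.05 over the 14884 genes, which 456 genes passed. With exposed replicate 1 or 2 or unexposed replicate 2 or 3 left out, with the replicate number as a block or without a mean-variance trend, 0 genes passed in limma (2065 to 2287 at an unadjusted p under 0.05, against 2815 with all arrays, 18.9% of genes), so each call named here, upward or downward, ends under each of these settings. Of 14 glioma and mesenchymal markers 12 were measured, and EGFR, which fell to 9.42 in exposed cells against 9.72 in unexposed cells, was the 1 past the threshold (limma adjusted p = 0.0348). Of the 12, 3 had positive and 9 negative differences, with a median of -0.08. GFAP was at 0.35 (limma adjusted p = 0.143), S100B at -0.42 (limma adjusted p = 0.251), FN1 at -0.17 (limma adjusted p = 0.148) and CHI3L1, a named target of the fields, at 0.14 (limma adjusted p = 0.430). VIM averaged 10.48 in exposed and 10.54 in unexposed cells and CD44 8.87 in exposed and 8.99 in unexposed cells, while SOX2, a stem cell marker of many gliomas, stood below the array medians at 3.62 in exposed and 3.57 in unexposed cells. These markers were named after their values were seen. Of 30 markers of neurons, blood cells, endothelium, epithelium and professional secretory cells, 15 were measured and 0 passed in limma, against 3.06% of all genes in either direction, with 0 at an unadjusted p under 0.05. Of these 15, 14 had positive differences, with a median of 0.0957. They were not all dim, with means from 2.42 to 12.30 in exposed and 2.28 to 12.24 in unexposed cells, CD68 being the highest. An array of bulk RNA does not tell a larger share of cells with a transcript from more transcript per cell. Levels of different genes are not set against each other here, because probe sets differ in brightness.

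MANF had the largest difference of the 4. Its values were 7.17, 6.96 and 6.98 in exposed replicates 1, 2 and 3, and 6.30, 6.36 and 6.57 in unexposed replicates 1, 2 and 3. The groups did not overlap, with exposed replicate 1 the highest and a gap of 0.39 between the lowest exposed and the highest unexposed array. It averaged 7.04 ± 0.12 (SD) over the exposed and 6.41 ± 0.14 (SD) over the unexposed arrays, with n = 3 each, a difference of 0.63 (SE 0.10) or 1.54-fold (95% interval 1.31 to 1.82). By size this difference was the 102nd highest among the 14884 genes, with 0.679% of genes above it.

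HYOU1 came next. On probe set 16745186, the brighter of its 2 and the one used for the gene, it had 9.24, 9.22 and 9.19 in exposed replicates 1, 2 and 3, and 8.78, 8.57 and 8.86 in unexposed replicates 1, 2 and 3. The exposed arrays lay close together, with a range of 0.0573, whereas the unexposed arrays ranged over 0.28, and unexposed replicate 2 was the lowest. It averaged 9.22 ± 0.03 (SD) over the exposed and 8.74 ± 0.15 (SD) over the unexposed arrays, with n = 3 each, a difference of 0.48 (SE 0.08) or 1.40-fold (95% interval 1.23 to 1.59). Without unexposed replicate 2 the difference was 0.40. The dimmer probe set 16732106 had 6.25, 6.14 and 6.40 in exposed replicates 1, 2 and 3, and 5.89, 5.68 and 5.81 in unexposed replicates 1, 2 and 3. Its groups did not overlap either, and its difference was 0.48 (SE 0.10), nearly that of the brighter one. RefSeq lists an antisense transcript, HYOU1-AS1, over the HYOU1 gene, and which strand each probe set reads was not tested. Both probe sets had unexposed replicate 2 as their lowest array, while the highest array was exposed replicate 1 on the brighter and exposed replicate 3 on the dimmer probe set.

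CALR had 12.364, 12.302 and 12.246 in exposed replicates 1, 2 and 3, and 11.976, 12.002 and 12.020 in unexposed replicates 1, 2 and 3. All exposed arrays were above all unexposed arrays, by a gap of 0.23. It averaged 12.304 ± 0.059 (SD) over the exposed and 11.999 ± 0.022 (SD) over the unexposed arrays, with n = 3 each, a difference of 0.30 (SE 0.05) or 1.24-fold (95% interval 1.14 to 1.33). PPIB had 11.464, 11.485 and 11.469 in exposed replicates 1, 2 and 3, and 11.198, 11.191 and 11.185 in unexposed replicates 1, 2 and 3. Its arrays hardly varied within a group, with ranges of 0.0214 in exposed and 0.0134 in unexposed cells. It averaged 11.472 ± 0.011 (SD) over the exposed and 11.191 ± 0.0067 (SD) over the unexposed arrays, with n = 3 each. The difference was 0.28 (SE 0.04) or 1.21-fold (95% interval 1.14 to 1.30), the smallest of the 4, and 8.38% of genes had a larger one. Because its array values lie so close together, the SE of PPIB rests mainly on the spread that limma takes over from other genes of similar brightness.

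All 4 genes had exposed values that lay wholly above the unexposed values, as did 13.2% of all genes. Since the genes were picked with this known, nothing is read from it. When single arrays were left out the differences lay between 0.56 and 0.71 for MANF, 0.40 and 0.54 for HYOU1, 0.27 and 0.33 for CALR and 0.27 and 0.29 for PPIB. Each gene's values were also centred on its own mean and averaged over the 4. The averages were 0.26, 0.20 and 0.17 in exposed replicates 1, 2 and 3, and -0.23, -0.26 and -0.14 in unexposed replicates 1, 2 and 3. In this average exposed replicate 1 was the highest array and unexposed replicate 2 the lowest. Gene by gene, PPIB was highest in exposed replicate 2, CALR and MANF were lowest in unexposed replicate 1 and PPIB in unexposed replicate 3, so HYOU1 alone of the 4 was lowest in unexposed replicate 2.

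**Figure D2:**
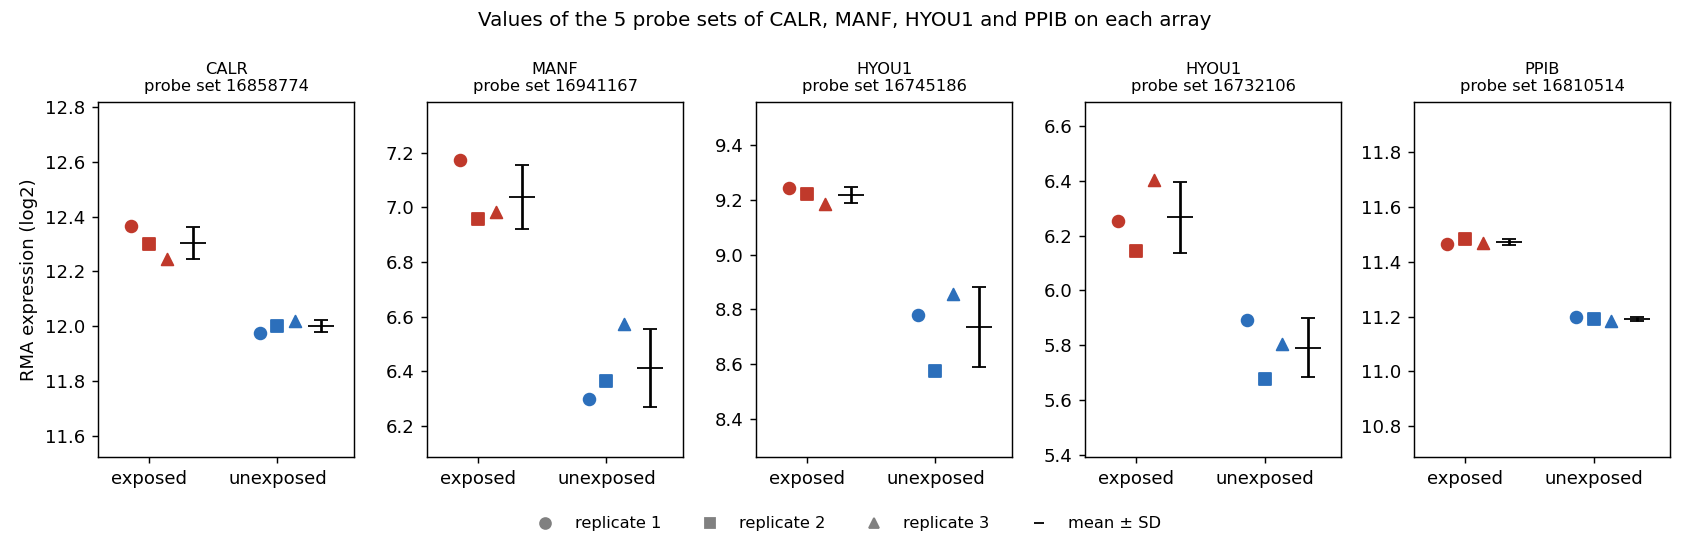
RMA log2 expression of the 5 probe sets of CALR, MANF, HYOU1 and PPIB on each array (symbols mark the replicate, black bars mean ± SD, n = 3 each), with the same span of log2 units in every panel. The exposed arrays lie above the unexposed arrays in all 5 panels, with the widest step for MANF (0.63) and the narrowest for PPIB (0.28).

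**Figure D3:**
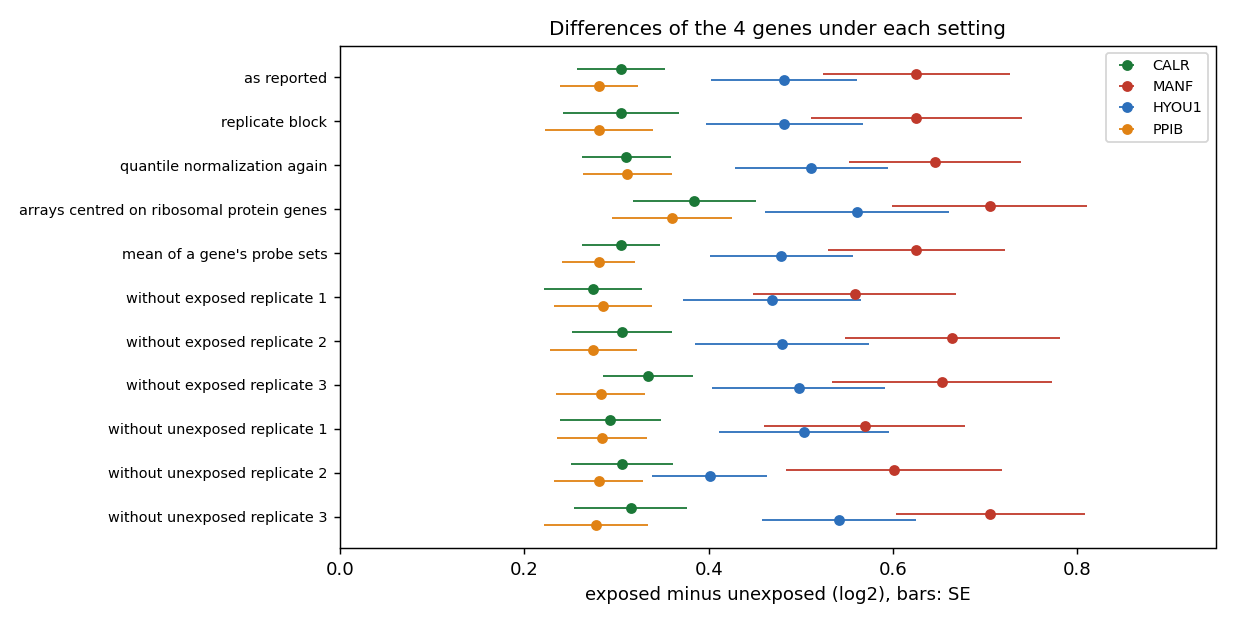
Exposed minus unexposed log2 difference (points, with SE as bars) of MANF, HYOU1, CALR and PPIB with all arrays, under other normalizations or models, and with each array left out. Every point is above 0, with MANF at 0.56 to 0.71 and PPIB at 0.27 to 0.29 when an array is left out. Because the groups of each gene do not overlap, leaving out an array could not bring a point below 0.

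Likeness of profiles was measured as the root-mean-square difference between the centred log2 values of a gene and those of another over the 6 arrays, which share the group difference. CALR and PPIB were close to each other at 0.0418, which made PPIB the 19th gene in order of likeness to CALR. HYOU1 was 1782nd and MANF 5433rd in that order, and the median distance of CALR from all genes was 0.21. In likeness to PPIB, CALR was 37th, HYOU1 2861st and MANF 8139th, so that MANF, at 0.206, was farther from PPIB than the median gene, at 0.195. The larger group difference of MANF (0.63, against 0.28 for PPIB) enters this distance. Its rank therefore does not show that the 2 genes follow unlike patterns over the arrays. In the same way, CALR and PPIB have group differences of near size (0.30 and 0.28), which bring them close in this distance. Their ranks therefore do not show a pattern shared beyond the group difference. The centred values were not scaled, so this limit holds for the nearest genes below as well. MANF and HYOU1 were 0.12 apart, and MANF and CALR 0.18. The nearest other genes to CALR were OSBPL2 (0.0176), the transcription factor SRF (0.0255) and the lysosomal enzyme PPT1 (0.0285). Those nearest to PPIB were RIMS1 (0.0152), IGFBP7 (0.0160) and LINC00588 (0.0175), of which RIMS1 and LINC00588 were dim, at 3.43 and 2.28 in exposed and 3.15 and 1.99 in unexposed cells. Those nearest to HYOU1 were SP140 (0.0321), STAMBPL1 (0.0335) and CASS4 (0.0390), and those nearest to MANF were STYXL1 (0.0604), FAM200C (0.0638) and RXFP2 (0.0647). These distances describe the 6 arrays and were not tested.

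Of the 8 nearest measured genes on either side of the 4 on their chromosomes, 0 rose and 1 fell past the threshold in limma. Of all genes, 1.40% rose and 1.67% fell. Next to CALR were SYCE2 (-0.08) and NFIX (-0.16), next to MANF were DOCK3 (-0.26) and RBM15B (-0.08), and next to HYOU1 were TRAPPC4 (-0.04) and VPS11 (0.0016). PPIB lies between SNX22 (0.01), which overlaps its end in the RefSeq table, and PCLAF, a cell cycle gene that fell by 0.65 (SE 0.12, limma adjusted p = 0.0384). The other 7 neighbours did not pass, with limma adjusted p of 0.0873 to 0.996. Of these 7, DOCK3 and NFIX were lower at an unadjusted limma p under 0.05 and 0 were higher. Of all genes, 18.9% reached that unadjusted p in either direction. These neighbours were chosen after the values of the 4 genes were seen.

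Around the 4 genes, 9 lists of ER genes held 311 entries, of which 192 were measured beside the 4. Of the 192, 12 rose in exposed cells, 0 fell and 180 did not pass in limma at an adjusted p of 0.05 over all genes, while 54 were higher and 11 lower at an unadjusted p under 0.05. The 12 are 6.25% of the 192, against 1.40% of all genes that rose and 1.67% that fell. The median difference over the 192 was 0.06, against 0.0029 over all genes, and 128 of the 192 had positive values, against 7543 of all 14884 genes. The 15 markers of other cell types, with 14 positive and a median of 0.0957, lay on the same side, and their part in the ER median was not tested. Of the 192, 48.4% had groups that did not overlap, in either direction, against 27.0% of all genes. After adjustment over all 53617 probe sets, where 0.705% passed, 3 of the 12 remained past the threshold, namely CNPY3, GPX8 and PPIC. The count of 12 was 0 when exposed replicate 1 or 2 or unexposed replicate 2 or 3 was left out, 1 (CNPY3) without unexposed replicate 1 and 9 without exposed replicate 3. Of those 9, 7 were among the 12 (CNPY3, GPX8, ERP44, CREB3L1, P3H4, PPIC and COLGALT1), and the other 5 of the 12 (CRELD1, ATF6B, UBXN8, OSTC and MLEC) did not pass in any of the 6 fits that leave out an array.

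**Figure D4:**
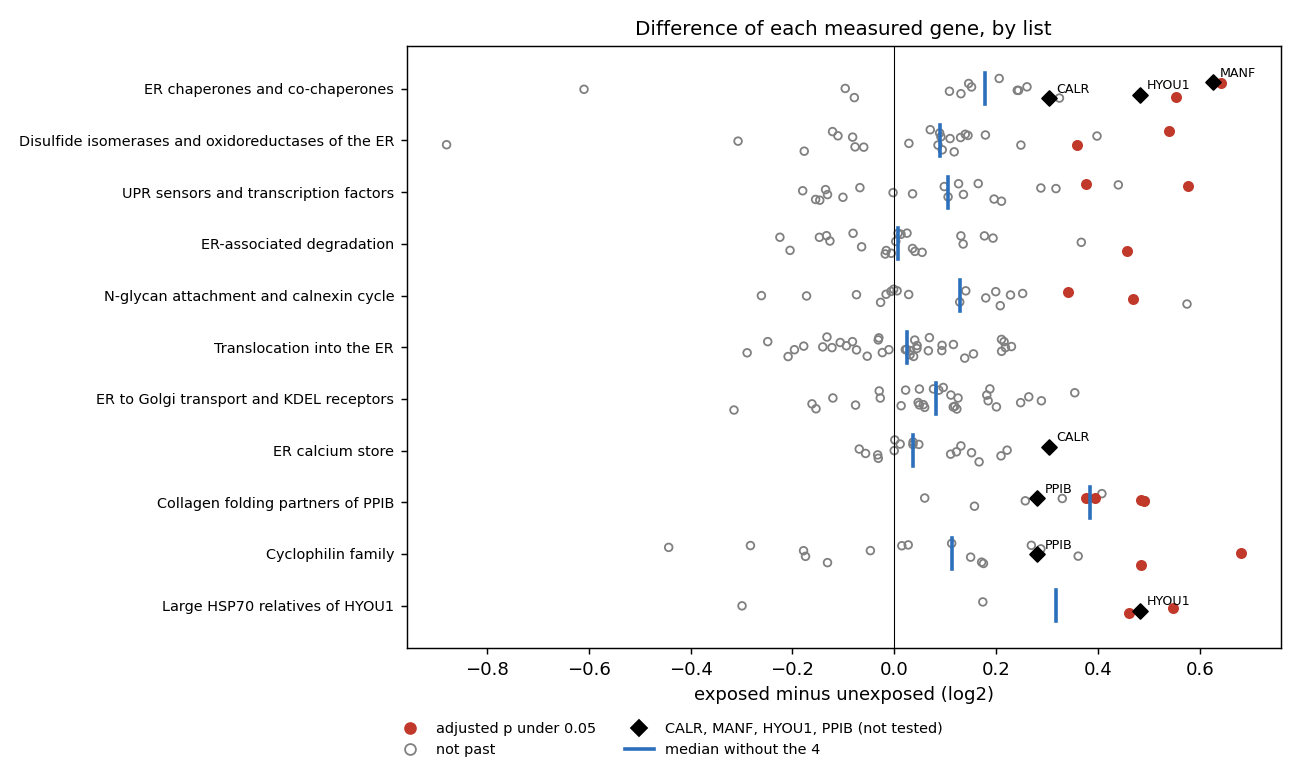
Exposed minus unexposed log2 difference (horizontal axis) of every measured gene in 11 lists (rows), with genes past the threshold in red, the rest as open circles, the 4 genes as black diamonds and the median without them as a blue bar. The collagen folding list has the median farthest to the right of the 9 ER lists (0.38) and the translocation list has no red point.

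The collagen folding list holds P3H1 and CRTAP, the complex partners of PPIB, and further genes that are not in that complex. It had the largest share of genes that rose among the 9 ER lists, 40% against 1.40% of all genes, whose median difference was 0.0029. Of its 10 measured genes beside PPIB 4 rose, 6 did not pass and all 10 had positive values, with a median of 0.38. PPIC, a further cyclophilin of the secretory pathway, had 7.75, 7.79 and 7.68 in exposed and 7.31, 7.19 and 7.28 in unexposed replicates 1, 2 and 3. It rose by 0.48 (SE 0.07, limma adjusted p = 0.0298). P3H4, a relative of the prolyl hydroxylases that acts with collagen lysyl modification, rose by 0.49 (SE 0.10, limma adjusted p = 0.0483), and COLGALT1, which adds galactose to collagen, rose by 0.39 (SE 0.07, limma adjusted p = 0.0336). CREB3L1, an ER-bound transcription factor known for collagen genes in bone, had 9.77, 9.80 and 9.64 in exposed and 9.47, 9.28 and 9.34 in unexposed replicates 1, 2 and 3, and rose by 0.38 (SE 0.07, limma adjusted p = 0.0414).

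The direct complex partners of PPIB did not pass. P3H1 had 8.999, 8.939 and 8.776 in exposed and 8.599, 8.525 and 8.600 in unexposed replicates 1, 2 and 3, a difference of 0.33 (interval 0.16 to 0.50, limma adjusted p = 0.0548). CRTAP had 10.50, 10.46 and 10.45 in exposed and 10.34, 10.08 and 10.21 in unexposed replicates 1, 2 and 3, a difference of 0.26 (interval 0.10 to 0.42, limma adjusted p = 0.0913). In both genes the exposed arrays lay above the unexposed ones. P3H2, a related hydroxylase, was at 0.41 (limma adjusted p = 0.0816). The collagen prolyl hydroxylases P4HA1 and P4HB and the collagen chaperone SERPINH1 are not analysed here.

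Among chaperones and co-chaperones of the ER, 14 were measured beside CALR, MANF and HYOU1, of which 2 rose, 0 fell and 12 did not pass, with a median of 0.18. The share that rose was 14.3%, against 1.40% of all genes that rose and 1.67% that fell, with a median of 0.0029. CNPY3, a chaperone of Toll-like receptors, had 8.63, 8.48 and 8.38 in exposed and 7.99, 7.78 and 7.80 in unexposed replicates 1, 2 and 3, and rose by 0.64 (SE 0.09, limma adjusted p = 0.0287). CRELD1 rose by 0.55 (SE 0.10, limma adjusted p = 0.0336). Calnexin (CANX), the membrane-bound lectin that works with CALR, had 11.02, 10.97 and 11.02 in exposed and 10.86, 10.83 and 10.86 in unexposed replicates 1, 2 and 3. Its difference of 0.15 (interval 0.05 to 0.26) did not pass (limma adjusted p = 0.118), nor did that of CNPY2, at 0.26 (limma adjusted p = 0.110). BiP (HSPA5), HSP90B1, SIL1 and the disulfide isomerases PDIA3 and P4HB are not analysed here, so neither the main partner of HYOU1 and MANF nor the isomerase that works with CALR was read.

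The closest relatives of MANF and CALR were dim. CDNF, the paralogue of MANF, had 3.49, 3.70 and 3.90 in exposed and 4.84, 4.14 and 3.93 in unexposed replicates 1, 2 and 3. Its difference of -0.61 (interval -1.17 to -0.05) did not reach the threshold (limma adjusted p = 0.227), and 4 of its 6 arrays stood below the array medians. CALR3, a testis relative of calreticulin, stood below the medians at 2.54 in exposed and 2.43 in unexposed cells, with a difference of 0.11 (interval -0.20 to 0.42, limma adjusted p = 0.744). LRPAP1, a chaperone of lipoprotein receptors, was at -0.10 (limma adjusted p = 0.616).

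Among HSP70 relatives of HYOU1, all outside the ER, 4 were measured, of which 2 rose and 2 did not pass. HSPH1, an exchange factor of cytosolic HSP70, had 10.71, 10.66 and 10.44 in exposed and 10.13, 9.90 and 10.13 in unexposed replicates 1, 2 and 3, and rose by 0.55 (SE 0.09, limma adjusted p = 0.0334). HSPA4L rose by 0.46 (SE 0.10, limma adjusted p = 0.0474). HSPA4, at 0.17 (limma adjusted p = 0.109), and HSPA14, at -0.30 (limma adjusted p = 0.345), did not pass. Among 17 cyclophilins measured beside PPIB, 2 rose, 0 fell and 15 did not pass, with a median of 0.11. Neither of these lists is among the ER lists, and both were chosen with earlier results known. Of all genes 1.40% rose, and the median over all genes was 0.0029. PPID, a cytosolic cyclophilin that binds HSP90, had 8.36, 8.31 and 8.31 in exposed and 7.65, 7.65 and 7.63 in unexposed replicates 1, 2 and 3. It rose by 0.68 (SE 0.06, limma adjusted p = 0.0227), the largest difference among the cyclophilins.

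Cytosolic cyclophilin A (PPIA) had values on the other side of 0. It had 6.60, 6.43 and 6.70 in exposed and 6.95, 7.13 and 6.99 in unexposed replicates 1, 2 and 3, so its exposed arrays lay below all unexposed arrays. Its difference of -0.44 (interval -0.67 to -0.22) did not pass (limma adjusted p = 0.0525). PPIA has many near-identical pseudogene copies, so its signal is uncertain as to its source. PPIL4 was at -0.28 (limma adjusted p = 0.118), PPIL2 at 0.29 (limma adjusted p = 0.101) and PPIAL4G, a close copy of PPIA, at 0.36 (limma adjusted p = 0.264).

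Among disulfide isomerases and other oxidoreductases, 2 of 24 rose, 0 fell and 22 did not pass, with a median of 0.09. The share that rose was 8.33%, against 1.40% of all genes that rose and 1.67% that fell, with a median of 0.0029. GPX8, a peroxidase of the ER membrane, had 9.79, 9.61 and 9.52 in exposed and 9.08, 9.11 and 9.11 in unexposed replicates 1, 2 and 3, and rose by 0.54 (SE 0.07, limma adjusted p = 0.0287). ERP44, which retains cargo in the early secretory pathway through thiol bonds, had 9.61, 9.48 and 9.37 in exposed and 9.08, 9.19 and 9.11 in unexposed replicates 1, 2 and 3, and rose by 0.36 (SE 0.07, limma adjusted p = 0.0449). In both genes exposed replicate 1 was the highest array. ERP29 was at 0.40 (limma adjusted p = 0.0522), the selenoprotein SELENOF, which binds the glycoprotein folding sensor, at 0.25 (limma adjusted p = 0.0836), TMX4 at -0.31 (limma adjusted p = 0.212) and TXNDC16 at -0.88 (interval -1.47 to -0.29, limma adjusted p = 0.110).

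**Figure D5:**
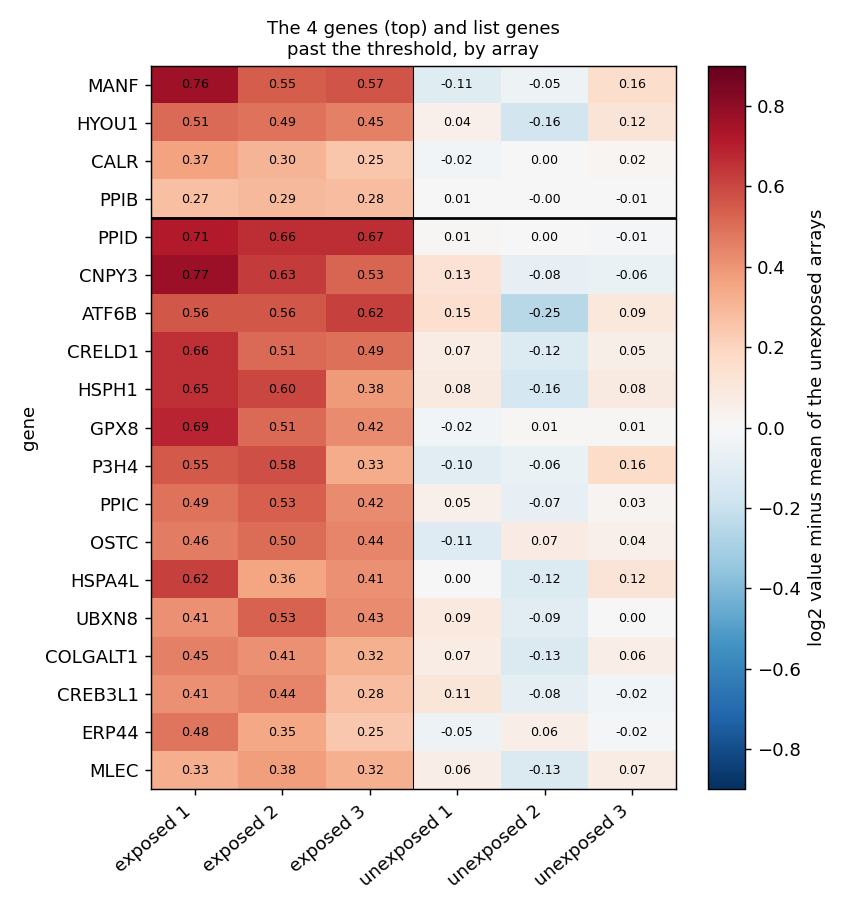
Log2 value minus the mean of the 3 unexposed arrays (colour and printed number) for the 4 genes (above the line) and for the 15 list genes past the threshold (below it), with exposed arrays on the left and unexposed arrays on the right. Unexposed replicate 2 is below 0 for most of the genes, down to -0.25 for ATF6B, and PPIB has the narrowest spread of the 4 in each group.

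Among sensors and transcription factors of the UPR, 2 of 21 rose, 0 fell and 19 did not pass, with a median of 0.11. The share that rose was 9.52%, against 1.40% of all genes that rose and 1.67% that fell, with a median of 0.0029. ATF6B, the paralogue of the sensor ATF6, had 8.79, 8.79 and 8.85 in exposed and 8.39, 7.99 and 8.33 in unexposed replicates 1, 2 and 3, and rose by 0.58 (SE 0.10, limma adjusted p = 0.0349). Without unexposed replicate 2, its lowest array, the difference was 0.45. CREB3L1, given above with collagen folding, was the other gene that rose. PERK (EIF2AK3) was at 0.44 (interval 0.08 to 0.80, limma adjusted p = 0.172), IRE1 (ERN1) at 0.32 (interval 0.05 to 0.59, limma adjusted p = 0.192), and ATF6 at 0.04 (interval -0.09 to 0.17, limma adjusted p = 0.809). XBP1, the factor downstream of IRE1, had 7.74, 7.80 and 7.91 in exposed and 7.72, 7.57 and 7.66 in unexposed replicates 1, 2 and 3, a difference of 0.16 (interval -0.0075 to 0.34, limma adjusted p = 0.286). The array gives 1 value for the gene and does not separate its spliced from its unspliced transcript.

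ATF4, the transcription factor downstream of PERK, did not pass. It was at -0.07 (interval -0.26 to 0.13, limma adjusted p = 0.746) and DDIT3 (CHOP), a target of ATF4 linked to cell death, at 0.13 (interval -0.18 to 0.43, limma adjusted p = 0.684), an interval that also holds the difference of CALR. The groups overlapped for both genes. These are transcript levels, and the amount and activity of the ATF4 and ATF6 proteins were not measured. CREB3 was at 0.21 (limma adjusted p = 0.0979), NFE2L1 at 0.20 (limma adjusted p = 0.163), CREB3L2 at -0.13 (limma adjusted p = 0.243) and the secreted STC2 at -0.15 (limma adjusted p = 0.353). The ATF4 value turned to 0.0020 without unexposed replicate 2 and to 0.0121 after centring on ribosomal protein genes.

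Genes of the ER lists whose promoters hold a complete element were looked at beside CALR and HYOU1. Beside CALR, 9 of 260 ER list genes with a promoter entry (3.46%) held an ERSE, and 5 of the 9 were measured, namely CANX (0.15), XBP1 (0.16), CRELD2 (0.15), FICD (0.13) and ERO1B (0.03). Beside HYOU1, 3 of 260 (1.15%) held an ERSE-II, and those measured were SDF2L1 (0.32) and NUCB1 (0.17). All 7 had positive values and 0 passed in limma, with adjusted p of 0.118 to 0.943, while CANX and NUCB1 had an unadjusted p under 0.05, as had SDF2L1. Over all 14884 genes, 7543 had positive values and 1.40% rose past the threshold. An unadjusted limma p under 0.05 was reached by 18.9% of all genes, in either direction. With so few genes, no result about promoters with an element is read from these counts. SDF2L1, a partner of ER J-domain chaperones, had 6.69, 6.80 and 6.77 in exposed and 6.55, 6.12 and 6.61 in unexposed replicates 1, 2 and 3. FICD, an enzyme that modifies BiP, and ERO1B, an ER thiol oxidase, had groups that overlapped. These 7 were named after their promoters and values were seen.

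The remaining steps of the pathway follow. Of all genes 1.40% rose, against 10.5% of the N-glycan list and 4.35% of the degradation list. In N-glycan attachment and the calnexin cycle, 2 of 19 rose, 0 fell and 17 did not pass, with a median of 0.13. OSTC, a subunit of the oligosaccharyltransferase, had 5.88, 5.91 and 5.85 in exposed and 5.30, 5.48 and 5.45 in unexposed replicates 1, 2 and 3, and rose by 0.47 (SE 0.09, limma adjusted p = 0.0420). Malectin (MLEC), a lectin that binds freshly trimmed sugars, rose by 0.34 (SE 0.07, limma adjusted p = 0.0407). OST4 was at 0.25 (limma adjusted p = 0.0511), MAGT1 at 0.21 (limma adjusted p = 0.126), UGGT2, a relative of the folding sensor UGGT1, at -0.26 (limma adjusted p = 0.137) and ALG13 at -0.17 (limma adjusted p = 0.402). In ER-associated degradation, which removes proteins that fail to fold, 1 of 23 rose, 0 fell and 22 did not pass, with a median of 0.0076. UBXN8, which tethers the extracting ATPase VCP to the ER, had 7.04, 7.17 and 7.06 in exposed and 6.72, 6.54 and 6.64 in unexposed replicates 1, 2 and 3, and rose by 0.46 (SE 0.08, limma adjusted p = 0.0336). SEL1L3 was at 0.37 (limma adjusted p = 0.0548), the ligase adaptor SEL1L at 0.19 (limma adjusted p = 0.120), the VCP cofactor NPLOC4 at -0.22 (limma adjusted p = 0.0759) and the ligase RNF139 at -0.20 (limma adjusted p = 0.257).

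Of 37 measured genes for translocation into the ER 0 passed in limma, 10 had an unadjusted p under 0.05 (18.9% of all genes did) and the median was 0.02. The shares at that unadjusted p in this list and in the 2 below are read against those 18.9%. Counts past the threshold are read against the 3.06% of all genes that passed in either direction. SEC62 was at 0.22 and NOMO1 at 0.22, while SEC63 was at -0.20 and CCDC47 at -0.29 (limma adjusted p of 0.114 to 0.183 for these 4). Of 30 genes for transport to the Golgi 0 passed in limma, 9 had an unadjusted p under 0.05 and the median was 0.08. Among them are the receptors that return ER proteins from the Golgi, with KDELR3 at 0.25 (interval 0.10 to 0.39, limma adjusted p = 0.0779) and KDELR1 at 0.18 (interval 0.03 to 0.33, limma adjusted p = 0.186). ERGIC2 was at 0.29 (limma adjusted p = 0.0630), STX18 at -0.31 (limma adjusted p = 0.131) and GOSR2 at -0.15 (limma adjusted p = 0.272). Of 17 genes of the ER calcium store measured beside CALR, 0 passed in limma, 4 had an unadjusted p under 0.05 and the median was 0.04. The calcium-binding calumenin (CALU) was at 0.21 (interval 0.09 to 0.33, limma adjusted p = 0.0777) and SARAF, a brake on store-operated calcium entry, at 0.22 (limma adjusted p = 0.0954). Sarcolipin (SLN), at -0.07, and the ryanodine receptor RYR2, at -0.06, were near the array medians or below them in both groups.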

How the data were processed

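Total RNA from 6 samples of U-87 MG cells was hybridised to 1-colour Affymetrix arrays, and groups came from the sample titles. The deposited values are log2 expression per probe set, made with RMA in Affymetrix Expression Console 3.0, with Transcriptome Analysis Console 3.0 also named, per the submitters' processing notes. Other settings of RMA are not given in those notes. The number of arrays limits the precision, and the table holds no detection calls.

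Of 53617 probe sets 16098 carried 1 symbol, 0 several and 37519 were unnamed here. All 14884 symbols stand in RefSeq (GRCh38.p14), and each gene was read from its probe set with the highest mean. Differences are exposed minus unexposed from limma 3.58.1 in R 4.3.3 (lmFit, eBayes with a mean-variance trend, all probe sets, two-sided, no covariates), with Benjamini-Hochberg adjustment over all genes and a threshold of 0.05. Errors are SE of the difference or SD of a group, intervals are 95% intervals, and figures used matplotlib 3.10.9. The procedure was tested on simulated data.

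The 4 genes and the 11 pathway lists (9 ER lists, cyclophilins, large HSP70 relatives) and 6 marker lists were chosen with earlier results of these data known. Named in each list were the genes past the threshold (at most 6 a direction) and the 2 not past it with the smallest p in each direction, a fixed set of partner genes, and the 3 genes most like each of the 4. Alternatives were the replicate number as a block, quantile normalization again, centring on ribosomal protein genes, no trend, no variance moderation, a level filter, averaging the probe sets of a gene and leaving out each array. Protein C-termini were not analysed here.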

Additional observations from a re-analysis of the deposited data

How the results depend on the processing

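The count of ER genes that rose beside the 4, 12 with all arrays, ranged from 0 to 9 with an array left out, and that of all genes past the threshold in either direction, 456 (208 higher and 248 lower), ranged from 0 to 325. Below too, counts of all genes cover both directions and those of ER genes the upward one, unless stated. Without a mean-variance trend both counts were 0, with 32 ER genes higher and 2220 of all genes at an unadjusted p under 0.05. Without variance moderation they were 0 and 4, with 54 ER genes higher and 2649 of all genes at an unadjusted p under 0.05. With the probe sets of a gene averaged they were 27 and 1173 (512 higher and 661 lower), and 3 ER genes fell. Over probe sets above the median level 17 of 180 ER genes rose and 753 of 10712 genes passed, 321 higher and 432 lower. The replicate numbers did not pair the samples (correlations of same-numbered deviations -0.0253 to 0.00964), and with the replicate number as a block both counts were 0, with 41 ER genes higher and 2286 of all genes at an unadjusted p under 0.05.

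The differences of the 4 genes kept their sign in all their alternatives, but most of these could not change it. Their groups did not overlap, so leaving out an array could not reverse a sign. The replicate block leaves each difference as it is, and averaging probe sets alters only HYOU1. The kept signs therefore support nothing. Centring on ribosomal protein genes, which moved the median of all genes to 0.0824, gave 0.38 for CALR and 0.36 for PPIB, and quantile normalization again gave 0.31 for PPIB. That centring adds 0.0795 to every gene, so small negative differences turn positive by construction: ATF4 (0.0121), RYR2 (0.0232), SLN (0.0108), RBM15B (0.0010), TRAPPC4 (0.0346) and VIM (0.0194, and 0.0114 with probe sets averaged). With an array left out the sign changed for ATF4 (-0.14 to 0.0020), RYR2 (-0.13 to 0.0314), SLN (-0.15 to 0.0017), SYCE2 (-0.23 to 0.0982), TRAPPC4 (-0.15 to 0.0941), SOX2 (-0.0360 to 0.12), ERO1B (-0.0301 to 0.0909), SNX22 (-0.0766 to 0.16) and VPS11 (-0.0582 to 0.0420). These cover genes named by the rule, neighbours of the 4, genes most like them, genes with a promoter element and named glioma markers. The test of proteins with an ER retention signal was not run, since no protein table was used here.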
